A study of Mus musculus with 6 samples.

Results

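The 9 genes followed here encode transcription factors, a receptor and a co-activator that set the luminal and basal identity of mammary cells. They were compared between T1 and T2 cells, which are populations sorted from 1 mouse mammary carcinoma model. The genes were taken by name from the deposited table and were all among its 24129 gene names. These are the luminal factors Gata3, Foxa1, Elf5 and Cited1, the basal factors Trp63 and Sox10, and the prolactin receptor Prlr with its signal transducers Stat5a and Stat5b. Both populations descend from 4T1 cells, a BALB/c mammary carcinoma line, which had been tagged with GFP and injected into the mammary fat pad of BALB/c mice. The T1 cells, labelled 4T1A, were sorted as GFP-low cells, grew adherent with an epithelial shape and were described as aggressive. The T2 cells, labelled 4T1NA, were sorted as GFP-high cells, grew round and loosely attached and were described as less aggressive. Neither population carried a treatment, both were kept in the same serum-containing medium, and both came from tumor cells that had outgrown a fibroblast culture from the dissociated tumor. They are thus cultured descendants of 1 line, with 3 RNA sequencing libraries each, and no values of the 4T1GFP parental line enter here.

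The mammary epithelium has an inner luminal layer, which holds hormone-sensing and milk-secreting cells, and an outer basal layer of contractile myoepithelial cells. GATA3 maintains luminal identity, FOXA1 opens chromatin for GATA3 and the estrogen receptor, ELF5 drives the milk-secreting fate and CITED1 is a co-activator of the estrogen receptor. p63, encoded by Trp63, is the defining factor of basal cells, and SOX10 marks basal and progenitor-like cells. Prolactin binds its receptor, which activates the kinase JAK2, and JAK2 phosphorylates STAT5A and STAT5B, which then switch on milk genes and their own inhibitors.

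Reads on genes numbered 18133227, 20839686 and 19743096 in T1 replicates 1 to 3, and 19587056, 18719791 and 20307207 in the T2 replicates. Values are normalized counts, that is, reads per gene divided by a size factor for each library, and 1 read was worth between 0.928 and 1.06 of them. Libraries of the same population correlated with r between 0.987 and 0.993 over genes, and libraries of different populations with r between 0.842 and 0.859. A gene entered the comparison if its 6 libraries averaged 10 normalized counts or more, and was compared with limma on log2(normalized count + 1). All log2 fold changes below are T1 minus T2 on this scale, where the added 1 shrinks the change of weakly expressed genes. The labels call the replicates independent without saying that they were separate cultures, so p-values measure the spread between these libraries, which may be technical.

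Of the 9 genes, 5 passed the filter on low values and 4 did not. Gata3 and Stat5a were lower in T1 cells, Foxa1 was higher, and Cited1 and Stat5b did not pass an adjusted p-value of 0.01 (limma with Benjamini-Hochberg adjustment). Over all 11514 genes compared, 49.5% passed that threshold, 25.1% in the higher and 24.4% in the lower direction, so a count of 3 among 5 is near the background. Only Foxa1 among the 5 also had an absolute log2 fold change over 2, as did 8.37% of all genes compared, 4.17% higher and 4.2% lower in T1 cells. The populations did not overlap in 4 of the 5 genes and in 68.1% of all genes compared. Elf5, Trp63, Sox10 and Prlr had at most 8 reads in any library.

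**Figure D1:**
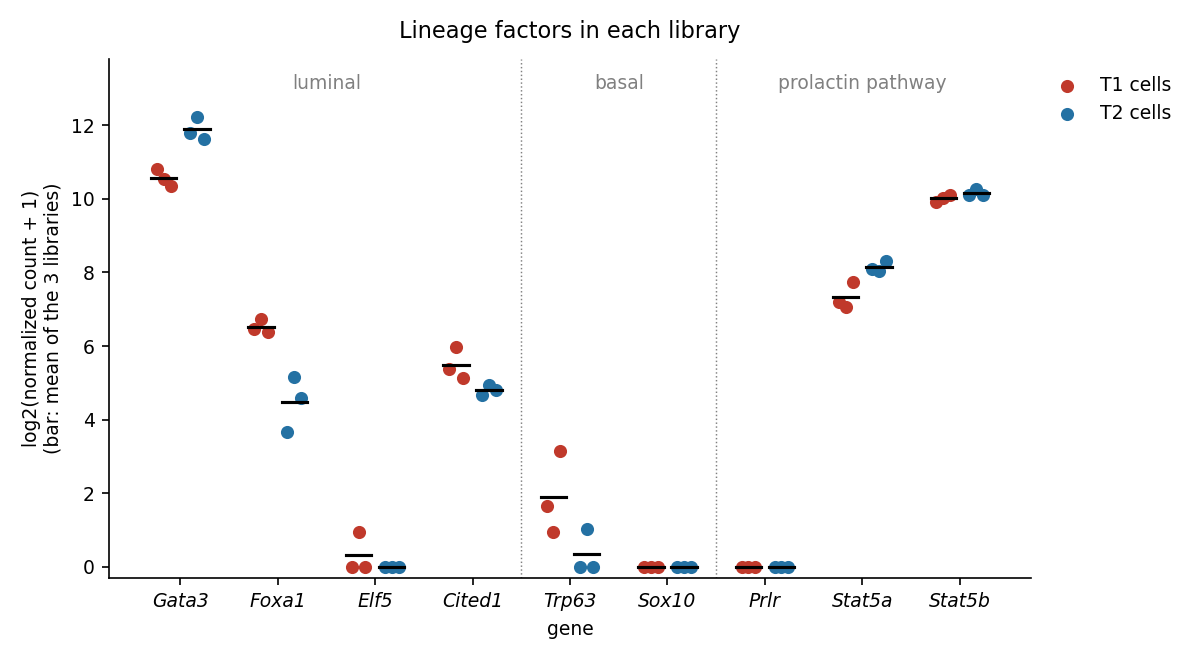
Level of each of the 9 lineage factors in each library, as log2(normalized count + 1), with 1 point per library and a bar at the mean of the 3 libraries of a population. Gata3 and Stat5a lie higher in T2 cells, Foxa1 lies higher in T1 cells, and Sox10 and Prlr lie at 0 in all 6 libraries.

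Gata3 was the most abundant of the 9 genes per length in both populations and was lower in T1 cells. It held 1788, 1502 and 1296 normalized counts in the 3 T1 libraries, and 3549, 4832 and 3161 in the 3 T2 libraries. Every T2 library lay above every T1 library. The means were 1529 ± 247 (SD, n = 3) in T1 cells and 3847 ± 874 (SD, n = 3) in T2 cells, a level 2.52-fold higher in T2 cells. The log2 fold change was -1.32 with a standard error of 0.16 (limma, adjusted p = 4.4e-05). The gene (ENSMUSG00000015619) lies on the minus strand of mm10 at chr2:9857078-9890034. The uncharacterised transcript 4930412O13Rik lies on the other strand of the same span and was also lower in T1 cells, with a log2 fold change of -1.48. The strand setting used for counting is not given in the sources used here, so reads from overlapping parts of the pair may not have been told apart. A second overlapping transcript, 9230102O04Rik, had a log2 fold change of -0.85.

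Foxa1 moved in the other direction, at a far lower level. The T1 libraries held 86.8, 106.0 and 82.0 normalized counts, from 82, 114 and 84 reads, and the T2 libraries held 11.8, 34.8 and 23.2, from 12, 34 and 25 reads. The lowest T1 library was above the highest T2 library. Mean levels were 91.6 ± 12.7 (SD, n = 3) in T1 cells and 23.3 ± 11.5 (SD, n = 3) in T2 cells, which is 3.94-fold higher in T1 cells. The log2 fold change was 2.05 with a standard error of 0.35 (limma, adjusted p = 0.000513). This value lies close to the threshold of 2 and depended on single libraries, since it was 1.94 without T1 replicate 2 and 1.64 without T2 replicate 1. Foxa1 (ENSMUSG00000035451) lies on the minus strand of mm10 at chr12:57540628-57546916.

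Of the 9 genes, the luminal factors Gata3 and Foxa1 moved in opposite directions. The 250 bases before 1 start site of each are therefore shown, as RefSeq gives them for GRCm38.p6 on the minus strand. Each window was searched on both strands for 5 short motifs. The motif of GATA factors was taken as AGATAA. That of FOXA factors was TGTTTAC. For STAT5 it was TTCNNNGAA, for ETS factors such as ELF5 it was AGGAAG, and for SOX factors it was ACAAAG. Capitals mark the FOXA match, which reads as its reverse complement. The Gata3 window is chr2:9878601-9878850 and the Foxa1 window is chr12:57546112-57546361. Both windows lie inside the gene spans given above, so any start site further upstream was not searched.
Gata3: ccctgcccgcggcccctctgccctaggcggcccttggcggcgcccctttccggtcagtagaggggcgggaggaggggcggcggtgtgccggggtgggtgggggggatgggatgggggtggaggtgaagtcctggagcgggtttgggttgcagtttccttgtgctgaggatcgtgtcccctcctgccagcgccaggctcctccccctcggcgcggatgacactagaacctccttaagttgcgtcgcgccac
Foxa1: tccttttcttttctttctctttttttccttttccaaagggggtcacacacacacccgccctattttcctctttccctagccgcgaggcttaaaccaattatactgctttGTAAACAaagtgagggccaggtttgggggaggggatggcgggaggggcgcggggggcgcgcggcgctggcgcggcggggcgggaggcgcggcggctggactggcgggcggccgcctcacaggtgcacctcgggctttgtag

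The Foxa1 window held 1 FOXA match, starting 141 bases before the start site, and 3 SOX matches, 2 of which overlap the FOXA match. The FOXA letters were present in 3.17% of 32851 windows of the same length. The Gata3 window held none of the 5 motifs. Of the 9 genes, 7 had windows, 14 in all, and FOXA letters were found in windows of 2 of them, Foxa1 and Prlr. STAT5 letters were found in a window of 1, Prlr, and in 7.02% of all windows. SOX letters were found only in that of Foxa1, and in 16.5% of all windows. ETS letters were found in windows of 4 genes, Cited1, Prlr, Stat5a and Stat5b, and in 29.5% of all windows. GATA letters were found in none of the 14, and in 9.99% of all windows. A gene with several windows counted if any of them matched. A match describes letters and not a bound site.

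Cited1 and Elf5 complete the luminal factors. Cited1 held 40.2, 62.3 and 34.2 normalized counts in T1 libraries and 24.5, 29.7 and 26.9 in T2 libraries. The T1 values lay above the T2 values without overlap, at means of 45.6 ± 14.8 (SD, n = 3) and 27.0 ± 2.61 (SD, n = 3). The difference did not pass the threshold, with a log2 fold change of 0.69, a standard error of 0.28 and an adjusted p of 0.053 (limma). Cited1 (ENSMUSG00000051159) lies on the minus strand of mm10 at chrX:102247381-102252181. Elf5 (ENSMUSG00000027186, plus strand, chr2:103411688-103450989) had a single read, in T1 replicate 2. With no read in T2 cells, counting error alone allows up to 0.0512 Elf5 reads per 1000000 reads on genes there.

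Among the luminal regulators and markers around these factors, 11 of 22 passed the filter, of which 3 were higher and 3 lower in T1 cells and 5 did not pass the test. That is close to the 49.5% of all genes compared that passed. One of the lower genes, Cebpb, lost its call without T1 replicate 1, T1 replicate 2, T2 replicate 1 or T2 replicate 2, and with DESeq2 or no variance trend. The median log2 fold change was 0.10, against -0.01 over all genes compared. Krt19, a luminal keratin, averaged 3177 ± 540 (SD, n = 3) normalized counts in T1 and 2.91 ± 2.54 (SD, n = 3) in T2 cells. Elf3, an epithelial ETS factor and relative of Elf5, was also higher in T1 cells, at 291 ± 9.35 against 68.7 ± 8.08 (SD, n = 3 each). Lower in T1 cells were Areg, an EGF receptor ligand that the estrogen receptor induces, at 808 ± 78.7 against 4147 ± 688, and Runx1, at 1271 ± 6.40 against 2681 ± 229 (SD, n = 3 each). The log2 fold changes of these 4 genes were 10.01, 2.07, -2.35 and -1.07, with adjusted p-values of at most 2.07e-06 (limma). Krt18, the most abundant listed gene that did not pass, had a log2 fold change of 0.10 (limma, adjusted p = 0.394). Neither the progesterone receptor gene Pgr nor Ehf, Tbx3 or Kit had a read in any library. Esr1, the estrogen receptor, was looked at outside the rule for naming genes, after its values were seen. It held 47.6, 67.0 and 73.2 normalized counts in T1 libraries and 27.4, 44.0 and 49.2 in T2 libraries, and these ranges overlap (log2 fold change 0.64, limma, adjusted p = 0.0683).

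The basal factors were at or near 0. Trp63 had 2, 1 and 8 reads in the T1 libraries and 0, 1 and 0 in the T2 libraries. Most of its T1 reads came from replicate 3. Summed over libraries, 11 reads stood against 1, a ratio of 11.0 per read on genes with an exact 95% interval of 1.60 to 473, which covers counting error only. Trp63 (ENSMUSG00000022510) lies on the plus strand of mm10 at chr16:25683763-25892102. Sox10 (ENSMUSG00000033006, minus strand, chr15:79154908-79165240) had no read in any of the 6 libraries, which allows up to 0.0256 reads per 1000000 over all of them.

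Genes that lie downstream of p63 or mark basal cells differed between the populations in both directions. Of the 10 p63 target genes, 9 passed the filter, of which 5 were higher and 3 lower in T1 cells, where 25.1% of all genes compared were higher and 24.4% lower. The list's median was 1.03 on the log2 scale. The higher genes included Krt14, the keratin of basal cells, at 3795 ± 77.0 against 3.04 ± 3.70 normalized counts, and the desmosomal gene Dsp, at 4279 ± 401 against 2.57 ± 1.46 (SD, n = 3 each). Lama3, a laminin chain of the basement membrane, followed the same direction, at 809 ± 117 against 13.1 ± 8.36. Jag2, a Notch ligand, was lower in T1 cells, at 9.36 ± 6.22 against 182 ± 25.4 (SD, n = 3 each). Their log2 fold changes were 10.36, 10.31, 6.01 and -4.34, with adjusted p-values of at most 1.23e-05 (limma). Dst, a cytoskeletal linker, had a log2 fold change of 0.00 (limma, adjusted p = 0.99).

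Of the 18 basal and myoepithelial genes, 8 passed the filter, of which 3 were higher and 4 lower in T1 cells, again beside 25.1% and 24.4% of all genes compared. The list's median was -0.33 on the log2 scale. One of the higher genes, Tagln, lost its call with any single library left out, and under edgeR or DESeq2, a replicate block or no filter on low values. Sox9, among the lower genes, lost its call without T1 replicate 1, T1 replicate 3 or the variance trend (limma, adjusted p = 0.0102, 0.0106 and 0.0195). Besides Krt14, the keratin gene Krt17 was higher in T1 cells, at 1259 ± 367 (SD, n = 3) normalized counts and at least 429.6-fold above T2 cells, in which no library had more than 1 read. Lower in T1 cells were Id4, an inhibitor of differentiation found in basal cells, at 5.40 ± 4.85 against 372 ± 57.4, and Mylk, the myosin light chain kinase of contractile cells, at 14.4 ± 3.24 against 220.4 ± 61.2 (SD, n = 3 each). These log2 fold changes were -6.19 and -3.83 (limma, adjusted p = 3.46e-06 and 9.29e-07). Srf, a regulator of contractile genes, did not pass, with a log2 fold change of 0.38 (limma, adjusted p = 0.0338). Krt5, the usual partner of Krt14, had no read, as was the case for Snai2, Myocd and Lgr5.

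**Figure D2:**
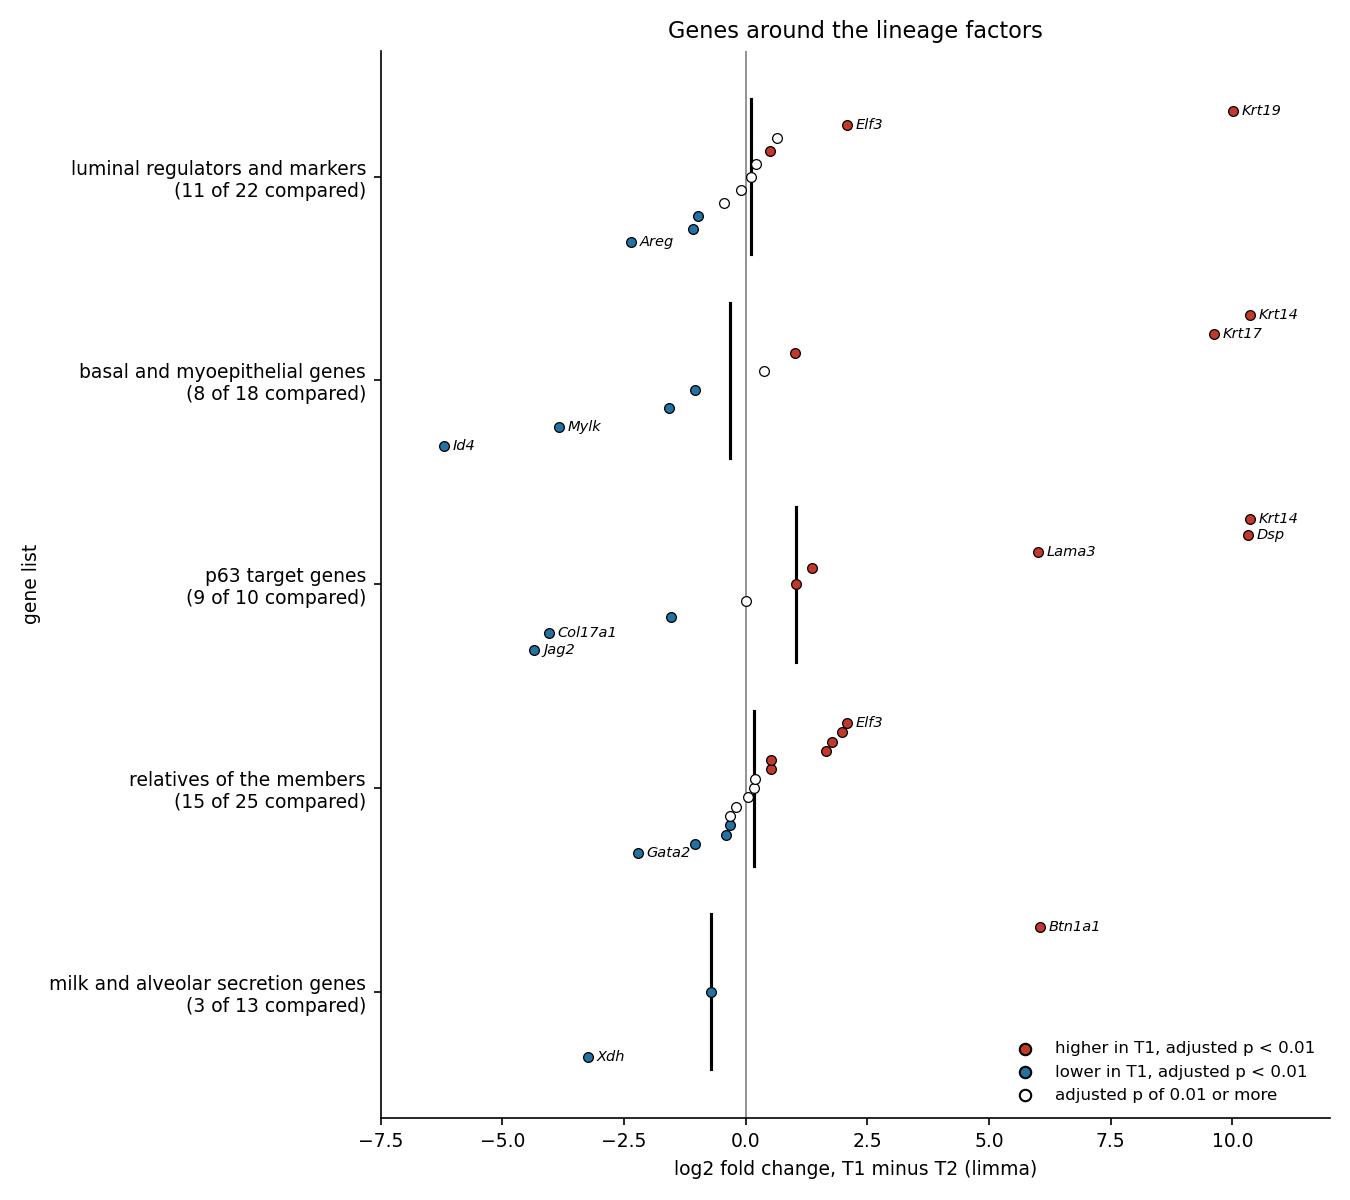
Log2 fold change, T1 minus T2, of every compared gene in 5 lists around the lineage factors, with 1 point per gene and a vertical bar at the median of the list. Krt14, Krt17, Krt19 and Dsp lie at 9.61 or more on the T1 side, while Id4 lies at -6.19.

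Prlr, the receptor at the head of the prolactin pathway, had no read in any library, which allows up to 0.0256 reads per 1000000 over all 6. It is annotated as ENSMUSG00000005268 on the plus strand of mm10 at chr15:10177238-10349180. The transducers below it were both expressed. Stat5a held 146, 132 and 212 normalized counts in T1 libraries and 272, 263 and 319 in T2 libraries, without overlap. Its means were 163 ± 42.6 (SD, n = 3) and 285 ± 30.1 (SD, n = 3), with a log2 fold change of -0.82 and a standard error of 0.19 (limma, adjusted p = 0.00318). The call was lost when single libraries were left out, with an adjusted p of 0.014 without T1 replicate 1, 0.0146 without T1 replicate 2, 0.0119 without T2 replicate 1 and 0.0193 without T2 replicate 3 (limma).

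Stat5b was more abundant than Stat5a. It held 968, 1036 and 1110 normalized counts in T1 libraries and 1098, 1241 and 1094 in T2 libraries, and the ranges overlap. The means were 1038 ± 70.8 (SD, n = 3) and 1144 ± 83.8 (SD, n = 3), and the log2 fold change of -0.14 with a standard error of 0.09 did not pass the test (limma, adjusted p = 0.216). The ratio of Stat5b to Stat5a was 6.63, 7.85 and 5.24 in T1 libraries and 4.03, 4.72 and 3.43 in T2 libraries. All 3 T1 ratios were above all 3 T2 ratios, and their mean difference was 0.69 on the log2 scale (two-sided exact permutation test, p = 0.1, the smallest that 3 against 3 samples can give).

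The genes are neighbours on chromosome 11 of mm10, Stat5a at chr11:100859351-100885169 on the plus strand (ENSMUSG00000004043) and Stat5b at chr11:100780731-100850724 on the minus strand (ENSMUSG00000020919), and their coding sequences are alike. Of 2291 aligned coding bases, 2080 were identical (90.8%). A stretch of 150 bases, the length of a read, is shown from the longest identical run, because a read inside it matches both genes equally. The run spans 324 bases, coding positions 571 to 894 in both genes, over 3 coding exons between 100874023 and 100874983 for Stat5a and between 100797741 and 100798701 for Stat5b. The stretch is the first part of the run, coding positions 571 to 720, and holds no capitals because nothing in it differs.
Stat5a and Stat5b: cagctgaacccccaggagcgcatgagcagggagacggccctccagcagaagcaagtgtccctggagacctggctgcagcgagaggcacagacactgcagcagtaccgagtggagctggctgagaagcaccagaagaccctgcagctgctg

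Of all 150-base stretches of the Stat5a coding sequence, 7.81% also occur in Stat5b. A read there matches both genes equally, although reads were paired and a mate outside may tell them apart. How such reads were counted is not given in the sources used here, so the counts are uncertain in that part. With the reads of both genes added together, the log2 fold change was -0.25 and did not pass the threshold (limma, adjusted p = 0.0336). Stat5a also overlaps Stat3, on the other strand, whose log2 fold change was 0.06.

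Around STAT5, the receptor, kinase and inhibitor genes of the pathway were mostly lower in T1 cells. Of the 18 pathway genes other than the 9 factors, 13 passed the filter, and 11 of these were lower and 2 higher in T1 cells, where 24.4% and 25.1% of all genes compared were lower and higher. The median log2 fold change was -1.57, against -0.01 over all genes compared. This list, like the others, was chosen with earlier results of these data known, so these counts describe the list and do not test it. Ghr, the growth hormone receptor, which also signals through JAK2 and STAT5, held 395, 399 and 342 normalized counts in T1 libraries and 3703, 3306 and 3314 in T2 libraries. Its level was thus 9.09-fold higher in T2 cells (log2 fold change -3.18, limma, adjusted p = 3.4e-09). Jak2 held 644, 519.9 and 688 normalized counts in T1 libraries and 5179, 5309 and 6107 in T2 libraries, 8.96-fold higher in T2 cells (log2 fold change -3.17, limma, adjusted p = 1.08e-08). For both genes the groups stood far apart. Among other receptor genes, Epor had 8 reads over the T1 and 2 over the T2 libraries, and Erbb4 had none.

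The feedback inhibitor Cish, itself induced by STAT5, held 47.6, 40.9 and 19.5 normalized counts in T1 libraries and 196, 239 and 168 in T2 libraries. It was 5.57-fold higher in T2 cells (log2 fold change -2.52, limma, adjusted p = 5.17e-05). Id2, an inhibitor of differentiation needed for alveolar growth, held 299, 1095 and 282 normalized counts in T1 libraries and 2770.1, 4225 and 3115 in T2 libraries. T1 replicate 2 stood above the other T1 libraries but below every T2 library (log2 fold change -2.87, limma, adjusted p = 0.000188). The next values were chosen after they were seen. The inhibitor Socs2 averaged 96.9 ± 5.73 against 541 ± 67.0 (SD, n = 3 each), with a log2 fold change of -2.46, and Socs1, Socs3 and Pias3 had log2 fold changes of -1.47, -1.57 and -1.66. The kinase Jak1 went the other way, at 3566 ± 128 against 2360.3 ± 126 (SD, n = 3 each) and a log2 fold change of 0.60, and so did Bcl6, a repressor that STAT5 keeps down, at 289 ± 17.9 against 135 ± 27.1 (SD, n = 3 each) and 1.11. Ccnd1, the cyclin of G1 phase, averaged 21577 ± 76.0 against 53906 ± 2093 (SD, n = 3 each), with a log2 fold change of -1.32. Adjusted p-values of these 7 genes were at most 0.00912 (limma), the highest being that of Socs3. Socs3 lost this call when any library but T1 replicate 2 was left out (limma, adjusted p between 0.011 and 0.0415), and also with a pseudocount of 0.5, no variance trend, edgeR or DESeq2 (adjusted p between 0.0101 and 0.045). The pathway then had 10 genes lower in T1 cells. Without T1 replicate 1 the log2 fold change of Socs3 was -0.98.

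**Figure D3:**
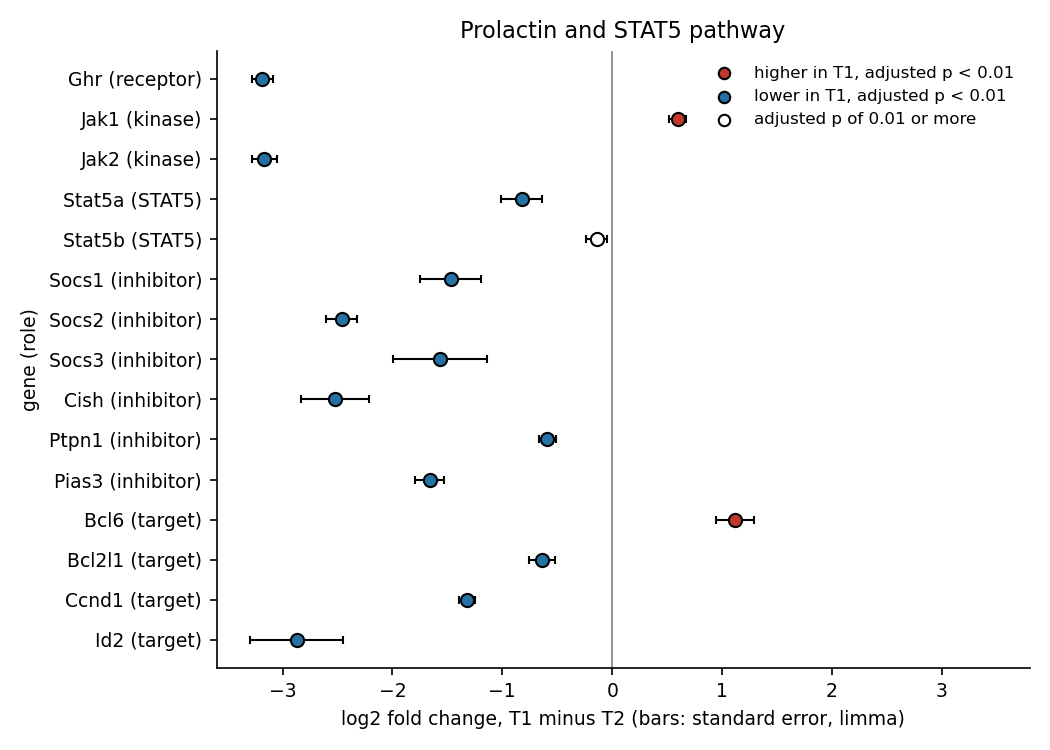
Log2 fold change, T1 minus T2, of the compared genes of the prolactin and STAT5 pathway, ordered by role, with bars for the standard error of the limma fit. Ghr and Jak2 lie near -3.18 and -3.17, Stat5b lies at -0.14, and Jak1 and Bcl6 lie on the T1 side.

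STAT5 letters were present before the start sites of 2 of the 15 pathway genes with windows, Bcl6 and Socs3, and in 7.02% of all windows. The 15 genes had 20 windows, and a gene counted if any of its windows matched, so these shares differ in unit. A Bcl6 window with 3 such matches is shown because only 0.317% of all windows held 2 or more, and it was chosen after it was seen. It lies at chr16:23981284-23981533 on the minus strand (RefSeq, GRCm38.p6), inside the gene's span of chr16:23965052-23988852. Another Bcl6 window, at chr16:23988853-23989102, lies just before the gene and held 1 match. Capitals mark the matches in the window shown, which start 168, 122 and 88 bases before its start site.
Bcl6: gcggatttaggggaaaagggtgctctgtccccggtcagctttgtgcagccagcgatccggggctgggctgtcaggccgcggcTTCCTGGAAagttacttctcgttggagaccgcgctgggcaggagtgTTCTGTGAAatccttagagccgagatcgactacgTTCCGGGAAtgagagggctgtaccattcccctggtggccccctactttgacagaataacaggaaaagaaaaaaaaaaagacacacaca

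Milk genes, the classical output of prolactin, ELF5 and STAT5, were mostly at or near 0 in both populations. Of 13 milk and alveolar secretion genes, 3 passed the filter and 7 had no read in any library, namely Csn1s1, Csn1s2a, Csn2, Wap, Lalba, Glycam1 and Lpl. Csn3, named after its values were seen, had 4, 0 and 3 reads in T1 libraries and 4, 2 and 32 in T2 libraries, so that T2 replicate 3 alone stood apart. The 3 compared genes all passed the test, 1 higher and 2 lower in T1 cells, where 49.5% of all genes compared passed. Btn1a1, a protein of the milk fat globule, averaged 65.6 ± 11.9 (SD, n = 3) normalized counts in T1 and had no read in T2 cells, at least 22.4-fold higher in T1 cells (limma, adjusted p = 5.41e-07), and it did not enter the comparison when a mean of 50 was required. Xdh, its partner on the globule, went the other way, at 104 ± 74.2 against 831 ± 241 (SD, n = 3 each), with a log2 fold change of -3.24 (limma, adjusted p = 0.000193). Mfge8, which is also secreted outside lactation, averaged 4577 ± 261 against 7518 ± 904 (SD, n = 3 each), with a log2 fold change of -0.71 (limma, adjusted p = 9.72e-05).

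Per kilobase of exonic length, Gata3 stood at 384 ± 62.1 normalized counts in T1 and 967 ± 220 in T2 (SD, n = 3 each). It was followed by Stat5b, at 187 ± 12.8 and 207 ± 15.1. In T1 cells Foxa1 (27.5 ± 3.82), Cited1 (26.0 ± 8.45) and Stat5a (22.9 ± 5.97) came next, and each overlapped its neighbour in this order. In T2 cells the order was Stat5a (39.9 ± 4.22), Cited1 (15.4 ± 1.49) and Foxa1 (6.99 ± 3.47), and these neighbours did not overlap. Among compared genes with a known length, Gata3 lay at percentile 75.2 in T1 cells and 91.5 in T2 cells, while Foxa1 lay at percentile 18.3 and 6.53. These levels are per length and cannot be read as protein.

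**Figure D4:**
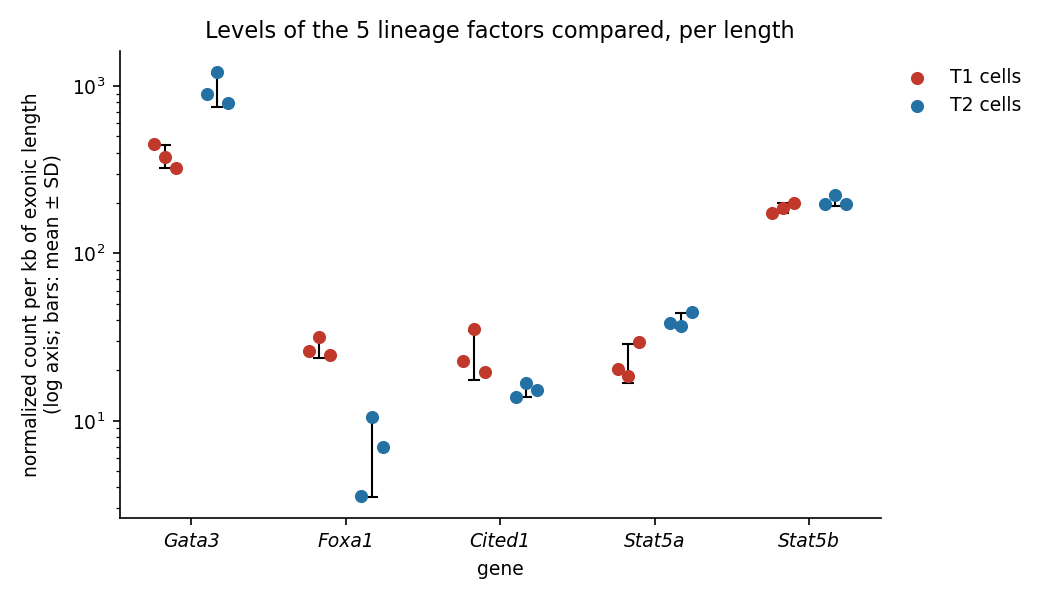
Normalized count per kilobase of exonic length of the 5 compared lineage factors on a log axis, with 1 point per library and bars for the mean ± SD. Gata3 and Stat5b are the highest in both populations, and Foxa1 moves from 27.5 in T1 cells to 6.99 in T2 cells.

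The genes whose levels over the 6 libraries were most like those of Foxa1 were Krt16, a keratin of stressed epithelium, with Pearson r = 0.998, Atad2b with 0.997 and Cers6, a ceramide synthase, with 0.994. Krt16 held 115, 155 and 91.7 normalized counts in T1 libraries and 0, 12.3 and 2.78 in T2 libraries. In all, 312 genes had an r of at least 0.95, and all of these points share the same libraries and the same split into populations.

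Markers of other cell types were checked because Gata3 is also expressed by T cells and Sox10 by Schwann cells, and in bulk libraries fewer cells of a type and less RNA per cell cannot be told apart. Of 5 mammary epithelial markers, 3 were higher in T1 cells (Epcam, Cdh1 and Krt7) and none lower, and Krt8 and Krt18 did not pass the test. Of all genes compared, 25.1% were higher and 24.4% lower. The 5 markers summed to 88735 to 106122 normalized counts in T1 libraries and 37607 to 43990 in T2 libraries. The T cell genes Cd3e, Cd3g, Cd4, Cd8a and Il7r had no read, and the sixth, Lck, held 37.0 to 50.8 in T1 and 12.3 to 17.6 in T2 libraries. The 6 leukocyte markers summed to 60.3 to 95.6 in T1 and 92.8 to 126 in T2 libraries, with Tyrobp at 0. Fibroblast markers summed to 225 to 241 in T1 and 997 to 1295 in T2 libraries, with Col3a1 and Lum at 0, Pdgfra lower and Col1a1 higher in T1 cells. Nearly all of this sum was Pdgfra, at 199 ± 7.98 in T1 and 1099 ± 171 in T2 cells (SD, n = 3 each). The others with reads leaned to T1 cells. Col1a1 had 69 reads over T1 and 1 over T2 libraries, Col1a2 had 23 and 0, and Dcn had 5 and 0. Pdgfra encodes CD140a, the marker on which the fibroblast culture had been sorted before tumor cells outgrew it. The paper also measured Pdgfra RNA in T1 and T2 cells themselves, as a mesenchymal marker. Endothelial and adipocyte markers summed to at most 5.29 in any library. Schwann cell and melanocyte markers summed to 25.4 to 33.5 in T1 and 41.1 to 71.7 in T2 libraries, with Dct at 0. The part of these differences in the results was not tested.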

How the data were processed

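RNA was measured in 3 T1 and 3 T2 samples by poly(A) RNA sequencing. The authors trimmed reads with Trimmomatic, used TopHat2 for alignment to mm10 and HTSeq for counts per gene, and deposited the signal as counts normalized by DESeq2 size factors. The annotation, strand setting and versions are not given in the sources used here. All 24129 gene names were kept (27 had become dates), with 0 unused columns. Values gave whole reads in 100% of cases (tolerance 0.01).

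The 11514 genes that averaged 10 or more normalized counts were compared by limma 3.58.1 (R 4.3.3), which was given log2(normalized count + 1), a variance trend and Benjamini-Hochberg adjustment. Calls were made at an adjusted p under 0.01, and separately with an absolute log2 fold change above 2, as in the study's methods. Folds against populations at no more than 3 reads per library used 3 reads. A total of 23103 names matched GENCODE M21, which gave positions and exonic lengths. The 9 genes and the lists were chosen with earlier results of these data known. From each list, up to 4 called genes with the largest fold change and the most abundant gene not called are named, and the 3 genes most correlated with Foxa1. Alternatives were other pseudocounts, filters, quantile normalization, no trend, edgeR 4.0.16, DESeq2 1.42.0, the replicate number as a term and libraries left out. Figures used matplotlib 3.10.9.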

Additional observations from a re-analysis of the deposited data

How the results depend on the processing

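Between 659 and 1272 genes passed both thresholds under the alternatives (964 as reported), and 929 to 970 with single libraries left out. No fold change of the 5 compared factors reversed. Foxa1 fell below the log2 fold change of 2, so that 0 of the 9 genes passed both thresholds, with a pseudocount of 5 (1.85), edgeR (1.98) and DESeq2 (1.98), and 0 to 1 did with libraries left out. The cause was not tested. Stat5a ranged from -1.03 to -0.69 with libraries left out, and summed with Stat5b it was -0.25, since the sum is mostly Stat5b. Replicate numbers were not taken to pair the samples, because same-numbered libraries deviated together with r of 0.0575 to 0.172 and not all passed 0.1. Of the 6 libraries, 5 correlated best with their own number, a hint of pairing from the data and not from the design. With the replicate block, 967 genes passed both thresholds, 3 of the 9 genes were called and 1 passed both. The block changed no call among the 5 factors. With same-numbered libraries paired, the Stat5b to Stat5a ratio had p = 0.25 (two-sided exact sign-flip test). That is the smallest p that 3 pairs can give, so it does not show a weaker difference. Trp63, Elf5, Sox10 and Prlr had too few reads to be compared.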

Other observations

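Relatives of the 9 factors were measured as a further list of 25 genes, of which 15 passed the filter on low values. In T1 cells 6 of these were higher, 4 lower and 5 did not pass the test, where 49.5% of all genes compared passed. The list's median was 0.17 on the log2 scale. The 4 lower genes became 2 without T1 replicate 1, when Elf2 and Sox9 lost their calls, and also 2 without the variance trend. Cited2, a co-activator related to Cited1, averaged 8575 ± 902 normalized counts in T1 and 2518 ± 363 in T2 (SD, n = 3 each), with a log2 fold change of 1.77 (limma, adjusted p = 5.85e-07). Stat2, which acts in interferon signalling, averaged 288 ± 22.1 against 72.4 ± 7.59, with a log2 fold change of 1.98 (limma, adjusted p = 2.43e-06). Gata2, a relative of Gata3 best known from blood cells, was lower in T1 cells, at 8.66 ± 3.58 against 42.6 ± 9.61 and a log2 fold change of -2.21 (limma, adjusted p = 0.00032). Elf3 is given above, and Zfpm1, which binds GATA factors, did not pass the test, with a log2 fold change of -0.31 (limma, adjusted p = 0.0109). Gata1, Gata5, Gata6, Foxa2 and Ehf had no read in any library.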
